A study of Mus musculus with 4 samples.

Results

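Scavenger receptors are cell surface proteins with which macrophages bind and take up modified lipoproteins, glycoproteins, damaged matrix, haemoglobin and dying cells. Some of them carry their cargo through clathrin-coated pits into endosomes, from where the receptor can return to the surface and the cargo goes on to lysosomes. In tumors, several of these receptors are used as markers of alternatively activated or tissue-resident-like macrophages. The 10 genes examined here were Stab1, Mrc1, Lyve1, Msr1, Cd36, Marco, Cd163, Scarb1, Colec12 and Timd4, taken by symbol from a table of 54146 genes, and all 10 of 10 had enough counts to be tested.

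The libraries came from tumor-associated macrophages (TAMs) of MCA205 tumors, a mouse fibrosarcoma line grown under the skin of female mice aged between 8 and 16 weeks, with C57BL/6 as the immunocompetent stock in the study's methods. Propranolol, a blocker of beta-adrenergic receptors, was given at 0.5 g/L in the drinking water from the day the cancer cells were injected, and the control mice, labelled vehicle, carried the same tumor without the drug. CD45+ cells were enriched on magnetic beads and live CD11b+ F4/80+ cells were then sorted by FACS, so the RNA is that of a sorted population and not of single cells. There were 2 vehicle and 2 propranolol libraries, the labels do not say how many mice went into each, and p-values therefore measure only the spread between these libraries. Total counts were 13798249 and 23018142 in vehicle replicates 1 and 2, and 39818103 and 16424081 in propranolol replicates 1 and 2.

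The sorted cells carried macrophage transcripts at high levels in every library. The 12 macrophage markers, among them Adgre1 (the gene of F4/80), Itgam (the gene of CD11b) and Csf1r, summed to 23069 and 22296 counts-per-million (CPM) in the vehicle libraries and to 28822 and 26390 CPM in the propranolol libraries, with Lyz2 as the most abundant and 0 of the 12 at zero counts. Of these 12, Csf1r rose by 0.59 on the log2 scale, and the other 11 did not pass the threshold, where 12.2% of all tested genes rose. After a correction for the GC content of genes 0 of the 12 were called, Csf1r included. Vehicle replicate 1 stood apart from the other libraries in 13 markers of fibroblasts or sarcoma cells, whose sum was 3530 CPM there against 1349 CPM in vehicle replicate 2 and 772 and 808 CPM in the propranolol libraries.

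Stab1 and Cd163 were the scavenger receptor genes called higher after propranolol in all the normalizations, tests and left-out libraries tried, at an adjusted p under 0.05 and over 1.5-fold. Mrc1 and Scarb1 had positive values throughout, but Mrc1 passed this threshold only after GC correction and Scarb1 in none of these fits. The promoters of Stab1 and Cd163 are shown for that reason. Promoters of 6 of the 10 genes (Stab1, Mrc1, Cd36, Marco, Cd163 and Timd4) were found in RefSeq on GRCm38.p6, each from 250 bases before to 50 bases after the RefSeq start of the gene. The Stab1 window lies at chr14:31168592-31168891 on the minus strand and the Cd163 window at chr6:124304401-124304700 on the plus strand. Both are written from 5′ to 3′ along the gene, and capitals mark the matches to 6 searched motifs.
Stab1: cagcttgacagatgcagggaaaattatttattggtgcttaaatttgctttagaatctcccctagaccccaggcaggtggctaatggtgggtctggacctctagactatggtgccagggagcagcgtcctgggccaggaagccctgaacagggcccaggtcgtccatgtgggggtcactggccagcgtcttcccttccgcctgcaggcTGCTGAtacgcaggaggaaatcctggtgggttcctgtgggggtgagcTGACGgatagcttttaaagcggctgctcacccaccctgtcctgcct
Cd163: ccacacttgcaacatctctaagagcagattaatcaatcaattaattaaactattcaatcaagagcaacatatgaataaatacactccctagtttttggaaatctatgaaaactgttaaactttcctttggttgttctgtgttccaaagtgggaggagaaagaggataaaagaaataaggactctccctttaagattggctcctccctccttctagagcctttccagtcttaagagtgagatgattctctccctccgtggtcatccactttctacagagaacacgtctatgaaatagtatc

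The motifs searched on both strands were TGACG (the core of the cAMP response element, present in 20.8% of 32851 promoters of the same length), TGACGTCA (the full cAMP response element, which contains the core, 1.79%), GAGGAAG (a core bound by the macrophage factor encoded by Spi1, 13.6%), TGCTGA (a core bound by Maf factors, 19.5%), TGANTCA (the AP-1 site, 7.81%) and GGGCGG (the GC box, 35.7%). The Stab1 window held TGCTGA from 43 bases before the start and TGACG from base 5 of the transcript, both on the strand of the gene. In the Cd163 window none of these letters were found. The other windows differed in what they held. Timd4 had TGACG and TGCTGA, Mrc1 had GAGGAAG and GGGCGG, Cd36 had TGCTGA and GGGCGG, and Marco had GAGGAAG. The Stab1 window was 57.3% G and C and the Cd163 window 38.0%.

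To compare the receptors with each other, counts were divided by exon length and scaled to transcripts-per-million (TPM). Stab1 was the most abundant of the 10 genes in both groups, at a mean of 894 TPM in vehicle and 1960 TPM in propranolol libraries. By mean TPM it was at rank 66 of the 28311 genes ranked. In the vehicle libraries it was followed by Mrc1 at 695 TPM, Msr1 at 267 TPM, Cd36 at 40.7 TPM, Scarb1 at 36.7 TPM, Lyve1 at 16.7 TPM and Cd163 at 15.4 TPM, with Colec12, Timd4 and Marco at 4.45, 2.38 and 1.93 TPM. Within this order the libraries of Lyve1 and Cd163, of Colec12 and Timd4, and of Timd4 and Marco overlapped, and the other neighbours were apart. In the propranolol libraries Mrc1 (743 TPM) and Msr1 (230 TPM) kept their places, Scarb1 (42.9 TPM) stood above Cd36 (31.2 TPM) and Cd163 (25.5 TPM) above Lyve1 (11.7 TPM). Marco (1.52 TPM), Colec12 (1.26 TPM) and Timd4 (0.644 TPM) came last. There, the libraries of Cd36 and Cd163 and those of Marco and Colec12 overlapped. The place of Scarb1 depends on the length used. Per length of the longest transcript in place of all exons it was at 78.5 TPM in vehicle and 90.8 TPM in propranolol libraries, above Cd36 in both groups (33.4 and 25.4 TPM), and Cd163 was then above Lyve1 in both groups (14.7 against 13.1 TPM in vehicle).

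**Figure D1:**
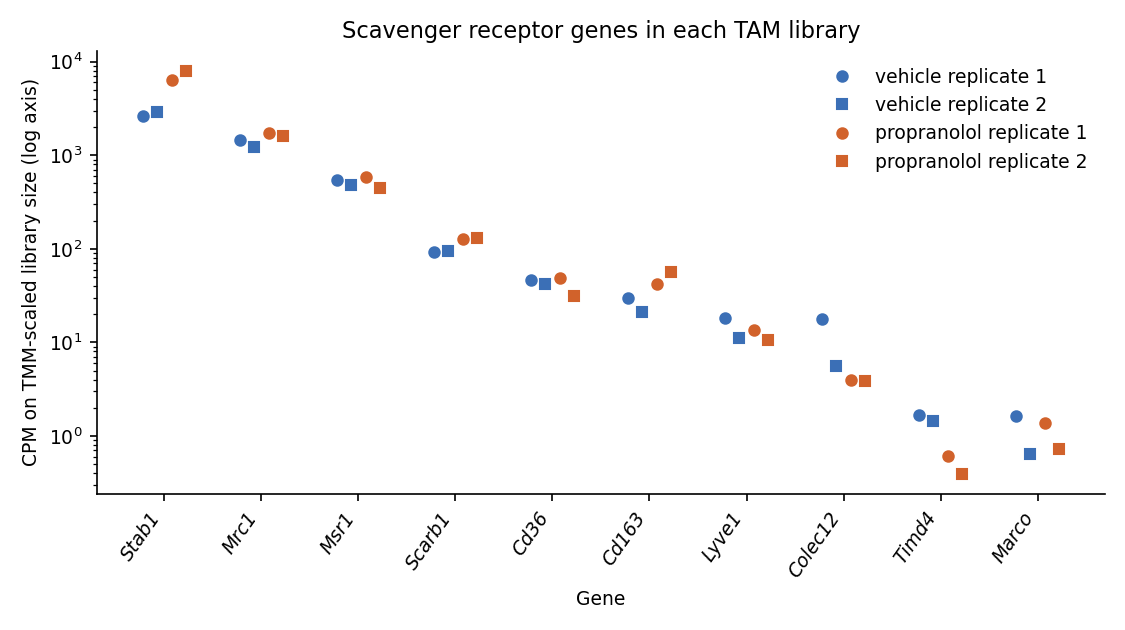
CPM of each scavenger receptor gene (log axis) in the 2 vehicle libraries (blue) and the 2 propranolol libraries (orange), 1 point per library. Stab1 and Cd163 are higher and Timd4 and Colec12 lower in both propranolol libraries, and for Colec12 vehicle replicate 1 at 18.0 CPM lies far above the other 3.

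Together the 10 genes took 1990 and 1960 TPM in the vehicle libraries and 2828 and 3269 TPM in the propranolol libraries. Without Stab1 the remaining 9 genes summed to 1147 and 1014 TPM in vehicle and to 1132 and 1045 TPM in propranolol libraries. Their sums overlapped on this scale, which carries no TMM factors, and the overlap need not hold in CPM. Mrc1, the most abundant of the 9, was at 1439 and 1231 CPM in vehicle and 1748 and 1618 CPM in propranolol libraries, without overlap. Msr1, the next, overlapped in CPM too. The share of Stab1 in the TPM sum of all 10 genes was 42.4% and 48.3% in vehicle libraries, against 60.0% and 68.0% with propranolol. The ratio of Stab1 to Mrc1 in TPM was 1.14 and 1.45 in vehicle and 2.24 and 3.05 in propranolol libraries. The pair differs in GC content (57.3% and 43.4%), and after a correction for GC content, fitted over all genes, their log2 fold changes were close, at 1.03 for Stab1 and 0.85 for Mrc1.

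Of the 10 receptors, 4 changed (an adjusted p under 0.05 in edgeR's quasi-likelihood test and a change over 1.5-fold). This is 40.0%, against 27.8% of all 14688 genes tested. Stab1 and Cd163 rose, where 12.2% of all tested genes rose, and Colec12 and Timd4 fell, where 15.6% fell. Neither Colec12 nor Timd4 was called after GC correction (-1.02 and -1.16) or without vehicle replicate 1 (-0.46 and -1.42). The median log2 fold change was 0.01 over the 10 genes and -0.02 over all tested genes. Both propranolol libraries lay outside both vehicle libraries for 6 of the 10 genes, and for 72.6% of all tested genes. With 2 libraries in each group an exact permutation test cannot reach 0.05, so all p-values come from the fit across all genes, and in bulk RNA fewer cells of a type and less RNA per cell cannot be told apart.

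**Figure D2:**
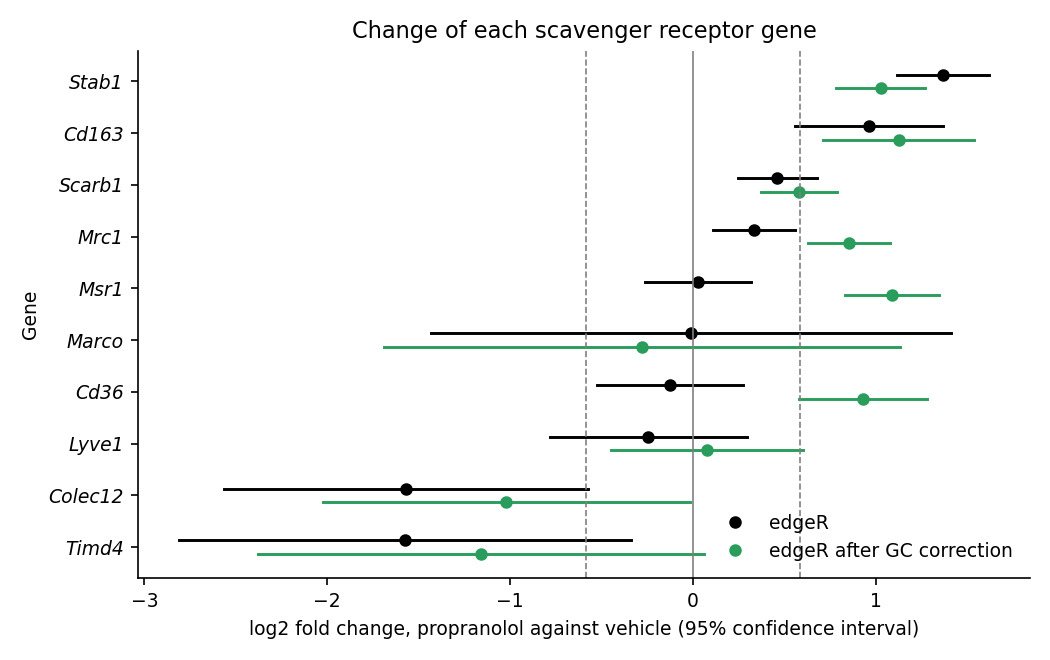
The log2 fold change of each gene, propranolol against vehicle, with its 95% confidence interval, from edgeR (black) and from edgeR after a correction for the GC content of genes (green). Dashed lines mark a 1.5-fold change. Stab1 and Cd163 lie above zero in both, and Mrc1, Msr1 and Cd36 move upward with the correction, to 0.85, 1.09 and 0.93.

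Changes across all genes followed the GC content of the transcripts, and this bears on several receptors. When the tested genes were divided into 10 groups of 1468 by GC content, the median log2 fold change was -0.94 in the group with the lowest GC content and 0.46 in the group with the highest. Across genes, which are not independent replicates, Spearman's rho between GC content and log2 fold change was 0.58. A second fit removed a smooth trend on GC content from each library. It called 12.6% of 14681 genes changed (1121 higher and 730 lower, against 1798 higher and 2286 lower without it) and moved the median of all genes from -0.02 to 0.09. Of the receptors, 5 were higher in this fit (Stab1, Mrc1, Msr1, Cd36 and Cd163) and 0 were lower, with a median of 0.71 over the 10 genes. What produced the trend was not tested.

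**Figure D3:**
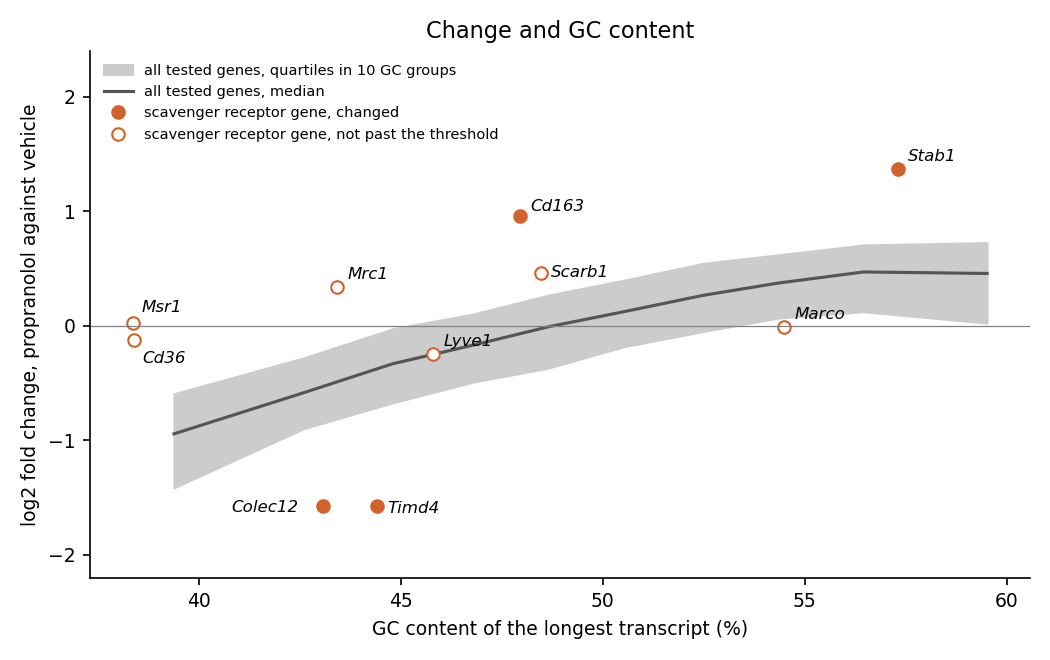
The log2 fold change, propranolol against vehicle, against the GC content of the longest transcript (%). The line and band are the median and quartiles of all tested genes in 10 GC groups, and filled points are receptors that changed. Msr1 and Cd36 lie near zero but above the band of genes of similar GC content, whose median is -0.94, and Stab1 lies above its own at 0.47.

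Stab1 encodes stabilin-1, a large endocytic receptor that clears modified lipoproteins, matrix fragments and the secreted glycoprotein SPARC and that also sorts newly made lysosomal proteins. It spans chr14:31139013-31168641 on the minus strand. Stab1 was counted at 2650 and 2889 CPM in the vehicle libraries and at 6322 and 7970 CPM in the propranolol libraries, or 2769 ± 169 and 7146 ± 1165 CPM (SD, n = 2). The groups were far apart, and the higher vehicle library lay below the lower propranolol library by more than the spread in either group. Stab1 rose 2.58-fold, a log2 fold change of 1.37 (SE 0.11, 95% confidence interval 1.12 to 1.62, edgeR adjusted p = 0.000103).

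The rise of Stab1 was read against other genes of the same libraries. Per 100 counts of Csf1r, the receptor for the growth factor M-CSF, there were 104 and 117 counts of Stab1 in the vehicle libraries and 176 and 200 in the propranolol libraries. With libraries scaled on the macrophage markers the log2 fold change was 1.08 (edgeR adjusted p = 0.000362), and after GC correction it was 1.03 (edgeR adjusted p = 0.000493). Stab1 has a GC content of 57.3%, and its change exceeded that of 98.6% of the genes in its GC group. Over all normalizations, tests and left-out libraries the value ran from 1.02 to 1.53.

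Of 10288 exonic bases of Stab1, 112 are shared with exons of Nt5dc2 on the opposite strand, where reads cannot be assigned without strand. Nt5dc2 had 967, 1473, 5652 and 2406 counts against 39295, 72478, 229885 and 121701 for Stab1 in vehicle replicates 1 and 2 and propranolol replicates 1 and 2. Nt5dc2 itself rose, with a log2 fold change of 1.34 (edgeR adjusted p = 0.000103).

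Mrc1 encodes the mannose receptor CD206, which takes up glycoproteins with mannose or fucose ends and is widely used as a marker of alternatively activated macrophages. It lies on chromosome 2 (chr2:14229392-14332057, plus strand). Mrc1 was at 1439 and 1231 CPM in the vehicle libraries and 1748 and 1618 CPM in the propranolol libraries. Its groups did not overlap on this scale but did in TPM, at 739 and 651 TPM against 757 and 729 TPM. The log2 fold change was 0.33 (SE 0.10, 95% confidence interval 0.11 to 0.56, edgeR adjusted p = 0.0224), a 1.26-fold difference under the threshold of size. It was 0.05 with libraries scaled on macrophage markers (edgeR adjusted p = 0.713), and 0.85, past the threshold, after GC correction (edgeR adjusted p = 0.000716).

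Lyve1 encodes a hyaluronan receptor found on lymphatic endothelium and on macrophages that lie along vessels. Its levels were 18.3 and 11.2 CPM in vehicle and 13.6 and 10.7 CPM in propranolol libraries, with overlapping groups. The log2 fold change was -0.25 (95% confidence interval -0.78 to 0.29, edgeR adjusted p = 0.444), which leaves room for a change of either sign. Of 7 lymphatic endothelial markers, Prox1, Reln, Mmrn1 and Ccl21a had at most 4 counts in any library and were not tested, and 0 of the 3 tested (Pdpn, Flt4 and Nrp2) changed, where 27.8% of all tested genes did. The sum of the 7 was 254, 256, 315 and 269 CPM in vehicle replicates 1 and 2 and propranolol replicates 1 and 2, nearly all of it Nrp2 and Pdpn.

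Cd163 encodes the receptor that removes haemoglobin bound to haptoglobin. Its span is chr6:124304656-124330527 on the plus strand. Cd163 was at 29.5 and 21.2 CPM in the vehicle libraries and at 42.5 and 56.1 CPM in the propranolol libraries. All propranolol values lay above all vehicle values, with a gap of about the size of the spread within a group. Cd163 rose 1.95-fold, a log2 fold change of 0.96 (SE 0.18, 95% confidence interval 0.56 to 1.37, edgeR adjusted p = 0.00233). With 1 library left out at a time the value ran from 0.75 to 1.27, it was 1.12 after GC correction, and it was lowest, at 0.68, with libraries scaled on macrophage markers (edgeR adjusted p = 0.022). Per 100 counts of Csf1r there were 1.16 and 0.86 counts of Cd163 in vehicle and 1.18 and 1.41 in propranolol libraries. On that measure vehicle replicate 1 and propranolol replicate 1 were nearly equal.

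Among the class A receptors, trimers with a collagen-like stalk that bind polyanions such as oxidized lipoproteins and bacterial surfaces, 1 of the 3 among the 10 genes changed, where 27.8% of all tested genes did. That 1 was Colec12, whose call rests on vehicle replicate 1, and after GC correction Msr1 was called in its place. Msr1, the macrophage scavenger receptor, was at 542 and 481 CPM in vehicle and at 592 and 449 CPM in propranolol libraries. The groups overlapped, with a log2 fold change of 0.03 (95% confidence interval -0.27 to 0.32, edgeR adjusted p = 0.893). With a GC content of 38.4%, Msr1 belongs to a group of genes whose median was -0.94, and its log2 fold change after GC correction was 1.09 (95% confidence interval 0.83 to 1.35, edgeR adjusted p = 0.000493). Both values of Msr1 therefore depend on whether the trend with GC content is removed.

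Marco, which binds bacteria and inhaled particles, had only 24, 16, 50 and 11 counts in vehicle replicates 1 and 2 and propranolol replicates 1 and 2, or 1.62, 0.638, 1.38 and 0.720 CPM. A change of Marco was not detected at these counts (log2 fold change -0.01, 95% confidence interval -1.44 to 1.41, edgeR adjusted p = 0.989).

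Colec12, a collectin with a scavenger receptor stalk, was at 18.0 and 5.58 CPM in the vehicle libraries and at 3.93 and 3.86 CPM in the propranolol libraries. Vehicle replicate 1 alone was high, and vehicle replicate 2 lay closer to the propranolol libraries than to its own replicate. Colec12 fell by 1.57 on the log2 scale (SE 0.45, 95% confidence interval -2.57 to -0.57, edgeR adjusted p = 0.0179). Without vehicle replicate 1 the log2 fold change was -0.46 (edgeR adjusted p = 0.344), and it was -1.02 after GC correction (edgeR adjusted p = 0.128) and -1.15 with limma-voom (adjusted p = 0.0839). The fibroblast or sarcoma cell markers were highest in the same library. Of 13 such markers 10 fell, where 15.6% of all tested genes fell, with a median log2 fold change of -1.69, and the most abundant, Col1a1, was at 905 and 375 CPM in vehicle and 247 and 277 CPM in propranolol libraries. None of the 13 were at zero counts, and their part in the value of Colec12 was not tested.

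**Figure D4:**
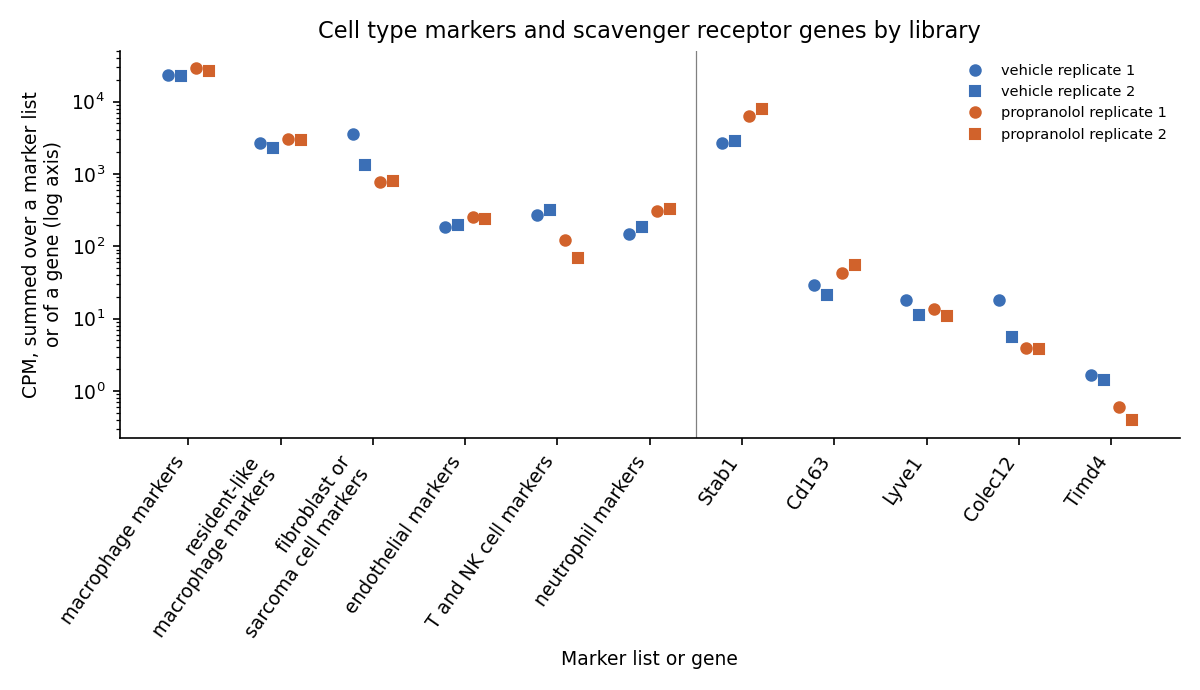
CPM (log axis) summed over 6 lists of cell type markers and of 5 receptor genes, in the 2 vehicle libraries (blue) and the 2 propranolol libraries (orange). Colec12 and the fibroblast or sarcoma cell markers share their high point, vehicle replicate 1, while Stab1 does not.

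Of the class B receptors, which bind lipids, 0 of the 2 among the 10 genes passed the threshold, where 27.8% of all tested genes did. Scarb1, which takes up cholesterol esters from high-density lipoprotein, was at 92.8 and 95.3 CPM in vehicle and at 128 and 130 CPM in propranolol libraries. These groups were apart and tight. The log2 fold change was 0.46 (SE 0.10, 95% confidence interval 0.24 to 0.68, edgeR adjusted p = 0.00405), which is 1.38-fold and so under the threshold of size, and 0.17 (edgeR adjusted p = 0.183) with libraries scaled on macrophage markers.

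Cd36, which binds oxidized low-density lipoprotein, fatty acids and thrombospondin, was at 46.3 and 41.9 CPM in vehicle and at 48.2 and 31.6 CPM in propranolol libraries. The propranolol libraries enclosed the vehicle libraries, and the log2 fold change was -0.13 (95% confidence interval -0.52 to 0.27, edgeR adjusted p = 0.602). As for Msr1, the value turned with the GC correction, to 0.93 (95% confidence interval 0.58 to 1.28, edgeR adjusted p = 0.00338). The GC content of Cd36 is 38.4%.

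Timd4 encodes a receptor for phosphatidylserine on dying cells and is known from resident macrophages. It was scarce in these TAMs, with 25 and 36 counts in the vehicle libraries and 22 and 6 in the propranolol libraries, or 1.69, 1.44, 0.605 and 0.393 CPM. The groups did not overlap. Timd4 fell by 1.58 on the log2 scale (SE 0.55, 95% confidence interval -2.81 to -0.34, edgeR adjusted p = 0.0428). With 1 library left out at a time the log2 fold change ran from -1.96 to -1.32, and the call was lost each time. It was also lost with DESeq2 (-1.61, adjusted p = 0.0917) and after GC correction (-1.16, edgeR adjusted p = 0.153).

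Markers of resident-like or perivascular macrophages, among which Lyve1, Timd4, Stab1 and Cd163 are often placed, summed to 2671 and 2312 CPM in vehicle and to 3008 and 2912 CPM in propranolol libraries. Of 12 tested, 6 rose (Folr2, Cbr2, F13a1, Gas6, Pltp and Fcna) and Igf1 fell, where 12.2% of all tested genes rose and 15.6% fell. After GC correction 2 were higher (Cbr2 and F13a1) and 0 were lower, so Igf1 was not called, where 12.6% of all genes changed. Selenop, the most abundant, had 1228 and 945 CPM in vehicle and 850 and 842 CPM in propranolol libraries, and Vsig4 had too few counts to be tested. The part of these cells in the rise of Stab1 and Cd163 was not tested.

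Stab1 is also made by endothelium of sinusoids, so endothelial markers were counted. They summed to 183 and 199 CPM in vehicle and 254 and 239 CPM in propranolol libraries, with Eng as the most abundant and 0 of 13 at zero counts. Of 10 tested, Cdh5 rose, at 4.86, 3.75, 7.21 and 7.33 CPM in vehicle replicates 1 and 2 and propranolol replicates 1 and 2, and it was not called after GC correction. The other lists were dendritic cells (4 of 10 markers fell; 109 and 96.5 CPM against 77.9 and 66.3 CPM; Batf3 most abundant), T and NK cells (10 of 11 fell; 273 and 315 CPM against 123 and 69.6 CPM; Nkg7), neutrophils (4 of 7 tested rose; 150 and 182 CPM against 311 and 327 CPM; S100a9) and platelets (2 of 5 tested rose; 161 and 147 CPM against 293 and 267 CPM; Pf4), and Gp1bb had no counts in any library. Of all tested genes 15.6% fell and 12.2% rose. After GC correction 2 of the dendritic cell markers (Clec9a and Fscn1) and 9 of the T and NK cell markers were lower. In that fit 5 of the neutrophil markers and 2 of the platelet markers were higher, where 12.6% of all genes were called. CPM are not scaled for gene length, so these sums and the CPM of Stab1 do not show which cells made it. The part of these lists in the receptor values was not tested.

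The wider family of scavenger and mannose receptors moved in both directions. Of 18 tested genes, 4 rose (Scarf1, Lrp1, Cd14 and Siglec1) and 5 fell (Scarf2, Mrc2, Ly75, Clec7a and Cd209a), or 50.0% against 27.8% of all tested genes, with a median log2 fold change of 0.02. Lrp1, a very large receptor for lipoprotein remnants and protease complexes, was at 2070, 2305, 4394 and 5885 CPM in vehicle replicates 1 and 2 and propranolol replicates 1 and 2, close to Stab1 in size of change, with a log2 fold change of 1.23 (edgeR adjusted p = 0.000148). Siglec1, the sialic acid receptor of resident macrophages, was at 682 and 787 CPM in vehicle and 1530 and 1846 CPM in propranolol libraries, and its log2 fold change was 1.20. Lrp1 and Siglec1 were both higher after GC correction too, while Scarf1 (0.45), Cd14 (0.50), Clec7a (-0.12) and Cd209a (-0.59) lost their calls. Scarf1 and Cd14 were not called with macrophage marker scaling either. Scarf2 and Cd209a were also not called without vehicle replicate 1, and Scarf2, Clec7a and Cd209a without propranolol replicate 2.

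Among those that fell, Ly75 (the uptake receptor DEC-205 of dendritic cells) was at 11.5 and 8.73 CPM in vehicle and 4.26 and 2.75 CPM in propranolol libraries. Mrc2, a collagen receptor known from fibroblasts, had 34.7, 15.6, 8.00 and 8.78 CPM and so had its high value in vehicle replicate 1, like Colec12. Its log2 fold change was -1.57. Without that library it was -0.84, still over the threshold of size, where Colec12 at -0.46 was under it. Mrc2 was also still called after GC correction (-1.91, edgeR adjusted p = 0.00331), unlike Colec12. Cd68, the most abundant of the family, was at 624 and 652 CPM in vehicle and 968 and 922 CPM in propranolol libraries, with a log2 fold change of 0.57, just under the threshold of size. It was over that threshold with no filter (0.64) and without vehicle replicate 1 (0.59), vehicle replicate 2 (0.61) or propranolol replicate 2 (0.63). It was under it without propranolol replicate 1 (0.53) and after GC correction (0.37). Stab2, the paralog of Stab1, had 3, 1, 8 and 7 counts, Megf10 had no counts, and Scara5 was also not tested.

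**Figure D5:**
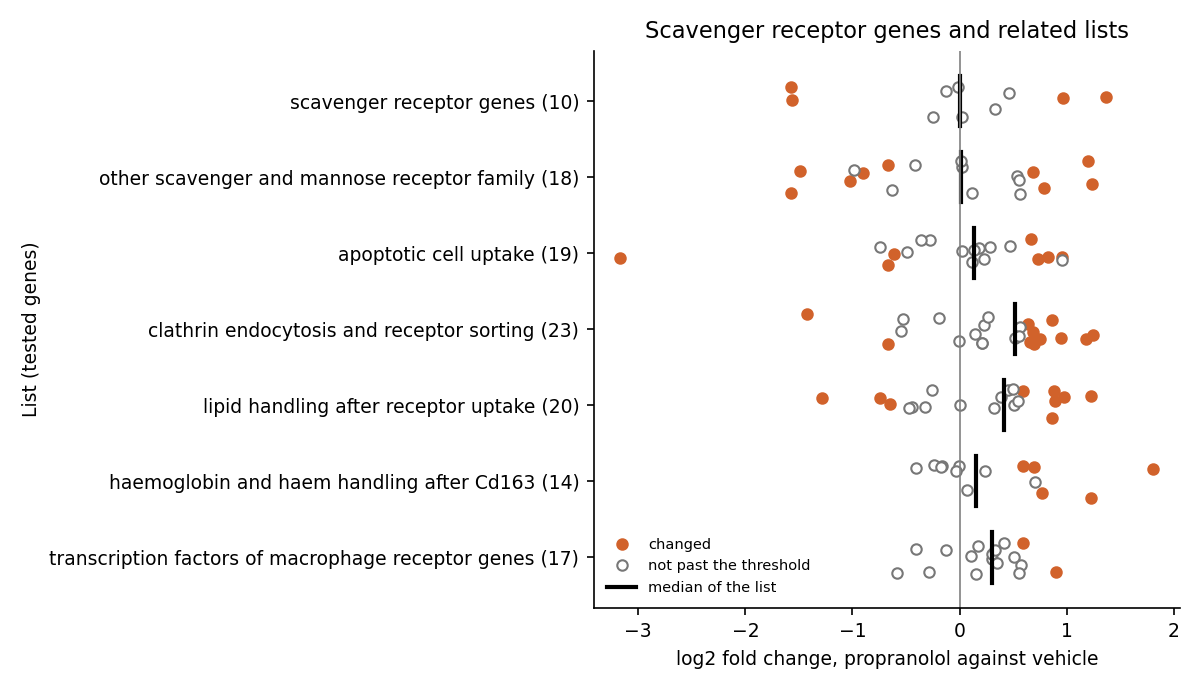
The log2 fold change, propranolol against vehicle, of the scavenger receptor genes and of 6 related lists, 1 point per tested gene, with bars at the list medians and filled points for genes that changed. The median lies at 0.52 for the clathrin list and 0.42 for the lipid list, against 0.01 for the receptors. After GC correction the order turns, with medians of 0.33, 0.28 and 0.71.

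Of 23 genes that carry receptors inward through clathrin and sort them, 9 rose, 2 fell and 12 did not pass the threshold. This is 47.8% changed against 27.8% of all tested genes, with a median of 0.52, and after GC correction 4 were higher and 2 lower with a median of 0.33, where 12.6% of all genes were called. All subunits of the adaptor complex AP-2 on the list other than Ap2b1 rose (Ap2a1, Ap2a2, Ap2m1 and Ap2s1), and of these Ap2a1 was not called after GC correction, and Ap2a1 and Ap2m1 were not called with macrophage marker scaling. Ap2s1 was at 151 and 141 CPM in vehicle and 357 and 334 CPM in propranolol libraries, with a log2 fold change of 1.24, and Ehd1, which drives recycling from endosomes, was at 227, 253, 540 and 548 CPM, with 1.18. Chid1, whose product binds stabilin-1 on its way to lysosomes, rose by 0.63, and Gga1, an adaptor of the same sorting route, rose by 0.75. Neither was called after GC correction (0.53 and 0.48) or with macrophage marker scaling, and Chid1 was also not called with upper-quartile factors or without vehicle replicate 2.

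On the same list, Rab5a, a GTPase of early endosomes, fell by 1.43 on the log2 scale, from 66.2 and 50.7 CPM to 23.2 and 19.9 CPM, while its paralog Rab5c rose by 0.66. Rab5a kept its call after GC correction (-1.17) and with macrophage marker scaling, and Rab5c (0.38 after GC correction) lost it in both. Hip1r, a link between clathrin coats and actin, fell by 0.67, a call that was lost without vehicle replicate 2 or without propranolol replicate 2. Clta, the most abundant gene of the list, did not pass the threshold and was at 502, 484, 600 and 556 CPM.

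Of 14 tested genes that handle haemoglobin and haem, the cargo of Cd163, 5 rose and 0 fell. This is 35.7% changed, against 27.8% of all tested genes and 12.2% that rose. Hp, encoding haptoglobin, was at 7.01 and 8.45 CPM in vehicle and 27.3 and 27.2 CPM in propranolol libraries, a log2 fold change of 1.81 (edgeR adjusted p = 0.000103). The neutrophil markers summed to 150 and 182 CPM in vehicle and 311 and 327 CPM in propranolol libraries. Their part in the value of Hp was not tested. Blvrb, a reductase of the haem breakdown product biliverdin, rose by 1.23, from 99.7 and 105 CPM to 229 and 251 CPM. Fth1, the heavy chain of the iron store ferritin, rose by 0.77 and was the most abundant, at 3863, 3972, 6783 and 6604 CPM, and it was under the threshold of size with macrophage marker scaling (0.48). Hmox1, which opens the haem ring, and Slc48a1, which carries haem out of lysosomes, rose by 0.69 and 0.59 but were not called after GC correction (0.47 and 0.27) or with macrophage marker scaling, and Hpx had too few counts to be tested. Slc48a1 was at the edge of the threshold and also lost its call with upper-quartile factors, with the stricter filter and without vehicle replicate 2 or propranolol replicate 1. The median of the list was 0.15, and 4 genes were higher after GC correction (Blvrb, Hp, Fth1 and Il10), where 12.6% of all genes were called.

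Lipid handling downstream of Cd36 and Scarb1 held 6 genes that rose and 3 that fell among 20 tested, or 45.0% against 27.8% of all tested genes, with a median of 0.42. Plin2, which coats lipid droplets, was at 198 and 188 CPM in vehicle and 412 and 494 CPM in propranolol libraries, a log2 fold change of 1.23. Fabp5, a fatty acid carrier, rose by 0.98, from 51.4 and 51.6 CPM to 106 and 96.5 CPM. Both were also higher after GC correction, when 3 genes of the list were called and 0 were lower, where 12.6% of all genes were called. Apoe, the most abundant, was at 10774 and 9926 CPM in vehicle and 13896 and 15356 CPM in propranolol libraries, with a log2 fold change of 0.50 that was under the threshold of size. Without vehicle replicate 1 it was 0.62, over that threshold, and after GC correction 0.17. Cav1, a gene of caveolae, fell by 1.28, from 28.3 and 12.6 CPM to 7.78 and 8.97 CPM, with its high value in vehicle replicate 1 and no call without that library (-0.55, edgeR adjusted p = 0.0962). Acsl1, which activates fatty acids, fell by 0.75, from 88.2 and 117 CPM to 66.9 and 55.2 CPM, and was not called after GC correction or without vehicle replicate 2 (-0.51).

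Of 19 tested genes of apoptotic cell uptake, the process in which Timd4 and Stab1 take part, 4 rose and 3 fell, or 36.8% against 27.8% of all tested genes, with a median of 0.13. Gas6, the bridge between dying cells and the receptor kinases Mertk and Axl, was at 258 and 223 CPM in vehicle and 395 and 458 CPM in propranolol libraries, a log2 fold change of 0.83 that was under the threshold of size after GC correction (0.49) and with macrophage marker scaling (0.54). Pros1, the other bridge to these kinases, fell by 0.67, from 56.4 and 53.8 CPM to 36.7 and 32.3 CPM, and had a log2 fold change of -0.15 after GC correction. It was also under the threshold of size without vehicle replicate 1 (-0.58) or without propranolol replicate 2 (-0.55). Cd300lb, a lipid receptor on myeloid cells, rose by 0.96, Cd300lf and Itgb5 rose, and Itgav fell. Cd300lf and Itgb5 were not called with macrophage marker scaling. After GC correction, when 12.6% of all genes were called, Cd300lb and Cd300lf were still called, and Itgb5 (0.33) and Itgav (-0.11) were not, and Itgav was not called without vehicle replicate 1 or propranolol replicate 1 either. Gulp1, an engulfment adaptor, had 20 and 22 counts in vehicle and 4 and 2 counts in propranolol libraries, and fell by 3.17 on the log2 scale, a call lost without vehicle replicate 1 or propranolol replicate 1 and after GC correction. Calr, the most abundant of the list, was at 1147, 1094, 1278 and 1152 CPM.

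Of 17 tested transcription factors known for control of macrophage receptor genes, 2 rose (Nr4a1 and Nr1h3) and 0 fell, with a median of 0.30. This is 11.8%, where 27.8% of all tested genes changed and 12.2% rose, and the difference was not tested. With no fold threshold 10 of the 17 were called, where 6204 of all 14688 tested genes were. Nr4a1, an early response nuclear receptor, was at 134 and 124 CPM in vehicle and 208 and 272 CPM in propranolol libraries, a log2 fold change of 0.90. Nr1h3, the liver X receptor alpha, was at 25.4, 29.8, 41.4 and 42.2 CPM, with a log2 fold change of 0.59 at the edge of the threshold, and both lost their call after GC correction, when Tfec was called higher in their place. Nr1h3 also lost it with upper-quartile factors, the stricter filter, limma-voom, macrophage marker scaling and without vehicle replicate 1. Spi1, the most abundant, was at 477 and 482 CPM in vehicle and 734 and 693 CPM in propranolol libraries, with a log2 fold change of 0.57 that was under the threshold of size. It was over that threshold with no filter (0.65) and without vehicle replicate 1 (0.62), vehicle replicate 2 (0.60) or propranolol replicate 2 (0.65). It was under it without propranolol replicate 1 (0.53) and after GC correction (0.24).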

How the data were processed

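The authors deposited 1 table of raw counts per gene for the 4 libraries. According to the study's methods and the submitters' processing notes, reads of poly(A) RNA were aligned to mm10 with STAR 2.7.1a, kept above a mapping quality with SAMtools 1.9, and counted over exons as read pairs with featureCounts 1.6.4 on GENCODE, whose release, like a strand option, is not given in the sources used here. Reads shared by near-identical copies are lost in this filter. Columns were matched to libraries by number and 0 were left out. Of 54146 genes, 54079 had a symbol in GENCODE M21 (GRCm38).

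Counts were tested in R 4.3.3 with edgeR 4.0.16 (glmQLFTest, TMM factors, filterByExpr with a minimum count of 10, Benjamini-Hochberg over 14688 genes), with DESeq2 1.42.0 and limma 3.58.1 as alternatives. The code was tested on simulated data. CPM uses TMM-scaled library sizes, with factors of 1.08, 1.09, 0.914 and 0.931 for vehicle replicates 1 and 2 and propranolol replicates 1 and 2, and TPM uses the length of all exons of a gene. GC correction removed a spline with 5 degrees of freedom on the GC content of the longest transcript from each library through offsets. Scaling on macrophage markers was added after the data were seen. The replicates differed by more than counting error (chi-square of 11.8 per degree of freedom in vehicle and 15.1 in propranolol), and the common dispersion was 0.0172.

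The receptors, lists and markers were chosen with earlier results of these data known. All 10 receptors are named, and from each pathway list the most abundant gene by TPM and up to 2 called genes with the highest and 2 with the lowest log2 fold change; from each marker list the most abundant gene. Other genes named with a value were chosen after their values were seen. Among them were Csf1r, Adgre1, Itgam, Chid1, Gga1, Rab5c, Hmox1, Slc48a1, Stab2, Cdh5, Nt5dc2, Scarf1, Cd14, Clec7a, Cd209a, Itgb5 and Itgav.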

Additional observations from a re-analysis of the deposited data

How the results depend on the processing

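The number of genes changed was 4084 and ran from 3615 to 4329 with 1 library left out, and was 1851 after GC correction, 2120 after GC correction with the replicate block, 6204 with no fold threshold and 728 with a log2 fold change above 1.5, as the methods write the criterion. Of the calls, 44.0% were higher, against 60.6% after GC correction, 55.7% with GC correction and the block, 35.9% with upper-quartile factors, 54.4% without vehicle replicate 1, 8.38% (61 higher and 667 lower) above a log2 fold change of 1.5 and 11.0% (471 higher and 3818 lower) with libraries scaled on macrophage markers, which moved the median of all genes to -0.31. Scavenger receptors numbered 4, 2 to 3 with 1 library left out (without vehicle replicate 1, Stab1 and Cd163), and 2 above a log2 fold change of 1.5 (Colec12 and Timd4, without Stab1 and Cd163).

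For the related lists, GC correction, with or without the replicate block, gave 5 of the other scavenger and mannose receptors (from 9), 2 for apoptotic cell uptake (from 7), 6 for clathrin (from 11), 3 for lipid handling (from 9) and 1 for transcription factors (Tfec, which is neither of the 2 called without it). A log2 fold change above 1.5 gave 1, 1, 0, 0 and 0 in the same order, and 1 for haem handling (from 5). With no fold threshold there were 17 for clathrin, 16 for lipid handling and 10 for transcription factors. Scaling on macrophage markers gave 7 for clathrin and 3 for haem handling. Transcription factors numbered 1 with upper-quartile factors, the stricter filter or limma-voom and 4 with no filter. With 1 library left out the counts ran from 7 to 10, 5 to 8, 11 to 13, 8 to 10, 3 to 5 and, for haem handling, 4 to 5.

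The sign of some values that missed the threshold turned. Lyve1 was 0.075 after GC correction, 0.073 with the block too, and ran from -0.56 to 0.19 with 1 library left out. Msr1 was -0.034 with upper-quartile factors, -0.27 with macrophage marker scaling, and -0.18 to 0.24 with 1 library left out. Cd36 was 0.93 after GC correction, 0.90 with the block too, and -0.47 to 0.16 with 1 library left out. Marco was 0.057 with no filter, 0.26 with limma-voom and -0.60 to 0.81 with 1 library left out, and was not tested under the stricter filter. Calr was -0.17 with macrophage marker scaling, and Clta -0.058 there, -0.042 after GC correction and -0.044 with the block too. The cause of these turns was not tested. For the counts of changed genes above, causes other than a changed threshold or fewer libraries were not tested either.

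The replicate numbers shared by the groups pair the libraries only by number: the correlation of the deviations of same-numbered libraries was 0.17. With the replicate block alone 4362 genes were changed, and the log2 fold change was 1.36 for Stab1, 0.96 for Cd163, -1.45 for Colec12 and -1.63 for Timd4. Marco and Timd4 had few counts, at most 50 and 36 in a library.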
